A study of Mus musculus with 18 samples.

Results

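The thyroid, which makes thyroid hormone, and the pituitary, which drives it through TSH, were compared gene by gene in WT mice. The comparison uses 6 of the 18 RNA-Seq libraries of the series: the thyroids and the pituitaries of WT mice 1, 2 and 43. All 6 came from untreated C57BL/Ntac males aged 3 months with the WT genotype. The other 12 libraries, from the hypothalamus of these mice and from the 3 tissues of K146Q mice, whose THRB carries a mutation of a sumoylation site, were used only where stated. Tissues were dissected and frozen, and total RNA was sequenced, so a library can hold every cell type of the piece that was removed. Members were chosen by genotype and tissue labels alone. Of 24027 gene symbols that occur once in each table, 15859 were tested, namely those with at least 0.5 normalized CPM (reads scaled to the size of the library and to a factor of the authors) in at least 3 of the 6 libraries.

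The pituitary secretes thyrotropin (TSH), a dimer of the common α subunit encoded by Cga and the β subunit encoded by Tshb. TSH binds its receptor on the follicular cells of the thyroid, which take up iodide, attach it to the very large protein thyroglobulin and release thyroid hormone from it by digestion in lysosomes. Thyroid hormone then acts through the nuclear receptors THRA and THRB, and in the pituitary THRB lowers TSH production, which closes the loop. Since the libraries are of bulk tissue, fewer cells of a type and less RNA per cell cannot be told apart in any value that follows.

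Shown here, as the sequences nearest to the contrast, are the 250 bases before the RefSeq start (build GRCm38.p6, written in the direction of transcription) of a few genes on which the contrast turns and for which the RefSeq table holds an entry: the subunits of TSH, prolactin, the iodide pump of the follicular cell and the follicular transcription factor Pax8. Capitals mark matches, on either strand, to the letters TATNCAT of POU1F1, the factor of somatotrophs, lactotrophs and thyrotrophs, GATAAG of GATA factors, and CTCAAG of NKX2-1.
Tshb (chr3:102782715-102782964, minus strand): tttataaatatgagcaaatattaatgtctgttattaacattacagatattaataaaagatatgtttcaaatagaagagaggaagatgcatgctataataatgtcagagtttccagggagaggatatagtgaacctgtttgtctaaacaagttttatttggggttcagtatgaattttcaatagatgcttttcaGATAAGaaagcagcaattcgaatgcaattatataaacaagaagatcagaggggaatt
Cga (chr4:34893529-34893778, plus strand): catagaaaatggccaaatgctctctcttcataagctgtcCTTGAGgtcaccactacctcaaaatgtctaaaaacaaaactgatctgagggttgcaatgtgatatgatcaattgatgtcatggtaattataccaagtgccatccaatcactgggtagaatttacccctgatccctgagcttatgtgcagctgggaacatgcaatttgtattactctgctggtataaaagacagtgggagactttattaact
Prl (chr13:27057320-27057569, plus strand): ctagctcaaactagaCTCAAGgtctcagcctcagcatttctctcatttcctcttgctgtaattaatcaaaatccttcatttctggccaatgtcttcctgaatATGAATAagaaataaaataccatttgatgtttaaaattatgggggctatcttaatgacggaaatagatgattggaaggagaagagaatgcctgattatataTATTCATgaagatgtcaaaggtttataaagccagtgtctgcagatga
Slc5a5 (chr8:70892758-70893007, minus strand): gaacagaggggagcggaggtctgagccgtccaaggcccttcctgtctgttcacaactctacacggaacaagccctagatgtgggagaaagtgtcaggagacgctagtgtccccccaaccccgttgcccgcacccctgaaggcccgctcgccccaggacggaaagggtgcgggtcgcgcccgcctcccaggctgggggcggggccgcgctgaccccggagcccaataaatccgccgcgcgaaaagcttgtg
Pax8 (chr2:24475600-24475849, minus strand): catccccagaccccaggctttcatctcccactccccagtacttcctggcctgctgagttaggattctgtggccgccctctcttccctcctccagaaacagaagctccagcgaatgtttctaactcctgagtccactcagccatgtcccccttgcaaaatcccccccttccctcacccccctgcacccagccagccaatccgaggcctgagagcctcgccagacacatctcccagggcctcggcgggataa
The Prl window held TATNCAT on its own strand with the first base 47 bases before the start and on the other strand 148 bases before it, and CTCAAG 235 bases before it. In the Tshb window the letters GATAAG began 57 bases before the start, and in the Cga window CTCAAG lay on the opposite strand, 211 bases before the start. These matches describe the letters and no more, and the letters are common: TATNCAT occurred in 7.92% of 32851 RefSeq promoter windows of this length, GATAAG in 6.55% and CTCAAG in 13.3%. Among promoters of genes at least 4-fold higher in the thyroid the shares were 3.45%, 4.66% and 11.1%, and among those of genes at least 4-fold higher in the pituitary they were 4.97%, 4.75% and 10.8%. Among promoters of all tested genes, from which both groups were drawn, the shares were 3.87%, 4.64% and 12.2%, so that TATNCAT was above that background on the pituitary side and below it on the thyroid side, GATAAG near it on both and CTCAAG below it on both, differences that were not tested. Tg and Gh have no entry in the table.

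Most genes, 72.3% of those tested, differed between the glands. With limma on log2(CPM + 0.5) and a Benjamini-Hochberg adjusted p under 0.05, 5677 genes (35.8% of those tested) were higher in the thyroid and 5791 (36.5%) higher in the pituitary. The added 0.5 CPM makes log2 differences smaller than the ratio of CPM for genes that are near 0 in either gland. With a difference of at least 4-fold added to the test, 1251 genes (7.89%) were higher in the thyroid and 1464 (9.23%) in the pituitary, and these shares are the background against which every count that follows is to be read. At least 64-fold separated 78 genes on the thyroid side and 59 on the pituitary side. The split by direction hangs on the scaling: thyroid-higher genes made up 49.5% of the calls as deposited, 37.9% when totals left out the 10 highest genes of each tissue (4449 higher in thyroid, 7285 in pituitary) and 32.6% with CPM without the authors' factor (3794 and 7841). The median of all genes moved by -0.25 and -0.36 on the log2 scale under these scalings, and several small differences named here did not pass with CPM without the authors' factor, namely those of Cidea, Clock, Comp, Isl1, Kcnq1, Plvap, Rab27b and Rxrb (limma adjusted p = 0.0579 to 0.314).

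**Figure D1:**
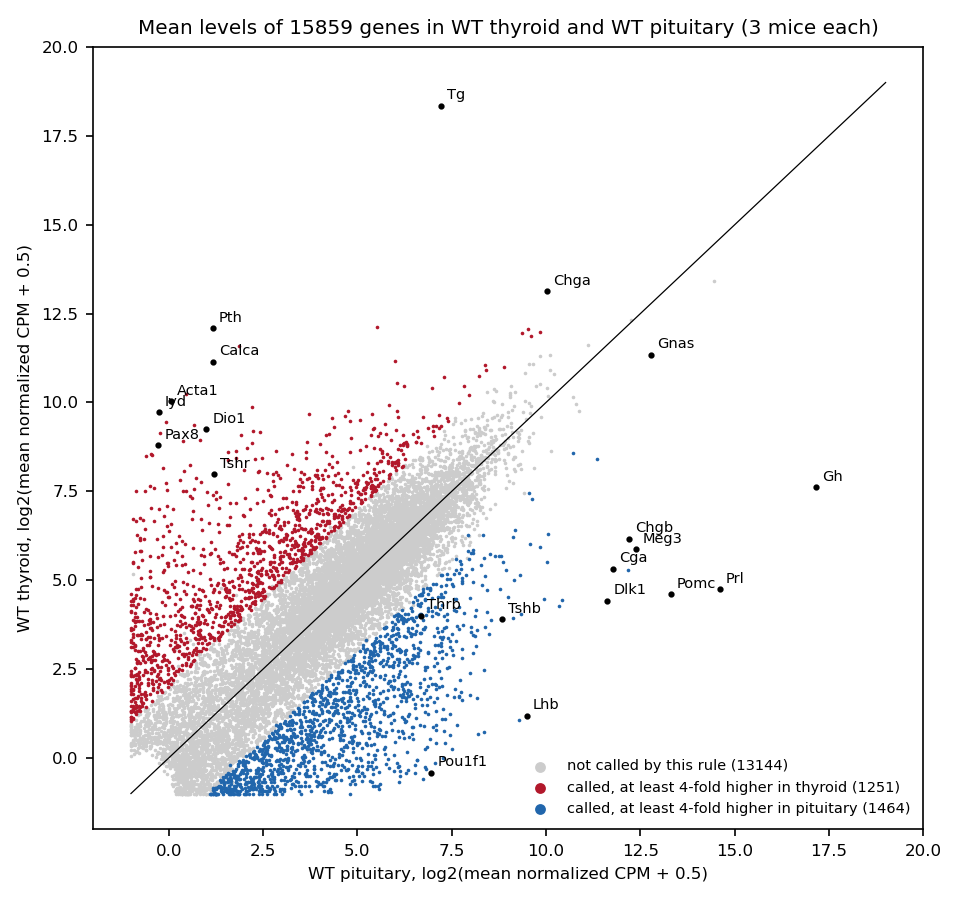
Mean level of each of the 15859 tested genes in 3 WT pituitaries (x axis) and 3 WT thyroids (y axis), as log2(mean normalized CPM + 0.5), with the line of equality. The 1251 red and 1464 blue genes passed the test with at least 4-fold; Tg stands alone at the top and Gh and Prl far to the right.

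One message dominated each gland. Tg, which encodes thyroglobulin (chr15:66670753-66850721, plus strand, GENCODE M21), was 349907, 357296 and 293439 CPM in the thyroids of mice 1, 2 and 43 and 132, 139.5 and 169.7 CPM in their pituitaries. It took 27.6%, 29.1% and 23.8% of all thyroid reads, and the log2 difference was 11.15 (SE 0.14, limma adjusted p = 1.52e-07), the largest among the calls. Gh, growth hormone (chr11:106300271-106301865, minus strand), was 97779, 125476 and 213048 CPM in the pituitaries and 365, 125 and 99.6 CPM in the thyroids, which makes 10.8%, 13.3% and 20.7% of pituitary reads. Both genes separated the tissues without overlap, and Gh varied by more than 2-fold among the pituitaries while Tg varied by much less among the thyroids. Per kilobase of exon the order of the dominant messages was the reverse of their CPM: Gh stood at 168717 CPM per kb in the pituitary and Tg, whose exons span 8883 bases against 862, at 37549 CPM per kb in the thyroid. The most abundant 381, 372 and 437 genes held 50% of the reads in the thyroids, and the most abundant 980, 772 and 575 genes did so in the pituitaries.

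Genes of thyroid hormone synthesis were higher in the thyroid. All 11 of 11 genes reported from that list were called higher in the thyroid, 10 of them by at least 4-fold, with a median log2 difference of 6.68, where the median over all tested genes was -0.01. Iyd, the deiodinase that recovers iodide from unused iodotyrosines, was 939, 695 and 903 CPM in the thyroids and 0.311, 0.4 and 0.285 CPM in the pituitaries. Slc5a5, the sodium-iodide symporter that brings iodide into the cell, was 459, 376 and 630.5 CPM against 0.934, 0.915 and 1.94 CPM. For both every thyroid stood far above every pituitary, and the log2 differences were 9.98 and 8.13 (SE 0.14 and 0.27).

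Hydrogen peroxide for hormone synthesis is made by dual oxidases, each with a maturation factor, and here the partners of 1 pair were far above the other. The gene Duox2 was 82.2, 71.2 and 78.5 CPM in the thyroids and its maturation factor Duoxa2 49.6, 61.4 and 53.2 CPM, whereas Duox1 was 1.71, 1.71 and 3.79 CPM and Duoxa1 1.39, 1.01 and 2.65 CPM. Per kilobase of exon Duox2 stood at 11.4 and Duox1 at 0.456 CPM per kb in the thyroid, and Duoxa2 at 34.4 and Duoxa1 at 0.423. All 4 lie side by side on chromosome 2, with Duox2 (chr2:122279247-122298449, minus strand) and Duoxa2 (chr2:122298900-122302885, plus strand) head to head, and all 4 were called higher in the thyroid, with log2 differences of 7.13, 6.68, 2.19 and 2.00. Duox1 and Duoxa1 had pituitary means of 0.110 and 0.0191 CPM, below the 0.5 CPM added before the log, which made their log2 differences smaller. Duoxa1 and Duoxa2 overlap on opposite strands, so reads of the low Duoxa1 may be uncertain.

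Among the anion carriers the textbook gene was the least steady. Slc26a4, pendrin, which passes iodide toward the follicle lumen, was 15.7, 1.14 and 14.7 CPM in thyroids 1, 2 and 43, so that mouse 2 lay more than 10-fold below the others, and 0.0445, 0.0572 and 0.114 CPM in the pituitaries (log2 difference 3.69, SE 0.85, limma adjusted p = 0.00662, and 4.78 without thyroid 2). Slc26a7, an anion transporter also known for its part in thyroid hormone synthesis and picked here after its values were seen, was 638, 541 and 532 CPM against 4.85, 4.46 and 5.24 CPM. In the thyroid it therefore stood far above Slc26a4 in every mouse, on the CPM scale. The remaining members, the monocarboxylate and iodide carrier Slc5a8 and the chloride channel Ano1, were higher in the thyroid by 3.15 and 1.76, and had the highest pituitary levels of the carriers, at 14.2, 9.89 and 14.1 CPM and 24.7, 17.2 and 19.8 CPM.

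The transcription factors that together mark the follicular cell were all higher in the thyroid. Pax8 was 436, 468 and 430.1 CPM in the thyroids and 0.222, 0.286 and 0.456 CPM in the pituitaries, and Foxe1 was 369, 353 and 390.02 CPM against 0.133, 0.286 and 0.285 CPM, with log2 differences of 9.09 and 8.99. Both varied little between mice, and in the pituitary they amounted to a few reads per library. Nkx2-1, which is also a gene of the ventral forebrain and of the neural lobe of the pituitary, was 409.8, 391 and 387 CPM against 6.76, 7.44 and 5.696 CPM (log2 difference 5.80), and Hhex differed by 5.69. The smallest difference was that of Glis3, at 69.3, 38.4 and 52.9 CPM in the thyroids and 23.05, 12.9 and 15.3 CPM in the pituitaries (1.62, SE 0.28), whose ranges lay close but did not overlap. Of 8 further follicular genes, 6 passed the filter and all 6 were called higher in the thyroid, from Cdh16, a kidney and thyroid cadherin, at 7.59 down to the potassium channel Kcnq1 at 0.56. Its partner Kcne2 had 1, 0 and 0 reads in the thyroids and 12, 6 and 4 reads in the pituitaries. Bmp8a had 1, 0 and 0 reads against 2, 1 and 2. Neither gene passed the filter, so neither was tested.

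The pituitary side was led by its hormones, all 7 of which were at least 4-fold higher there (median log2 difference -8.55). Prl, prolactin, was 19074, 24885 and 30662 CPM in the pituitaries and 44.6, 18.8 and 15.9 CPM in the thyroids, and Pomc, the precursor of corticotropin, was 11541, 11161 and 7554 CPM and 52.4, 9.301 and 9.68 CPM. The gonadotropin β subunits Lhb and Fshb were 727, 807 and 612 CPM and 606, 759.6 and 504 CPM in the pituitaries. Gh and Prl were highest in the pituitary of mouse 43, while Pomc, Lhb and Fshb were lowest in that same library. The 7 genes together took 14.8%, 17.7% and 24.99% of the pituitary reads of mice 1, 2 and 43.

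The subunits of TSH were not equal in amount. Cga was 3339.6, 3157 and 4007 CPM in the pituitaries and Tshb 539, 235 and 593 CPM, and per kilobase of exon they stood at 3670.1 and 100.03 CPM per kb, where the exon length of Tshb (4555 bases) covers every annotated transcript and so lowers its value. The α subunit is shared with luteinizing and follicle-stimulating hormone, whose own β subunits stood at 1055 and 389.6 CPM per kb. Tshb had the smallest log2 difference of the hormones, -5.57 (SE 0.86, limma adjusted p = 0.00106), and that of Cga was -7.22 (SE 0.82). The width of both errors comes from the thyroids, where Tshb was 35.9, 4.56 and 3.31 CPM and Cga 95.9, 14.8 and 8.06 CPM: thyroid 1 was above the others for every one of the 7 hormones. Without thyroid 1 the log2 differences were -6.59 for Tshb and -8.25 for Cga.

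Traces of each gland's messages in the other were measured on the same scale. In the pituitaries Tg, Pth and Iyd stood at 0.0441%, 0.0398% and 0.0393% of their thyroid means, the lowest shares among the 178 genes with a thyroid mean of at least 500 CPM. In the thyroids the 7 pituitary hormones ran from 0.106% of the pituitary mean for Prl, 0.135% for Gh and 0.236% for Pomc to 1.13% for Cga and 3.2% for Tshb. These shares rest on thyroid 1: without it they were 0.0698%, 0.0771%, 0.0941%, 0.327% and 0.863%. The 6 hypothalamus libraries of the series, a tissue that is neither gland, held Tg at 133.5 to 167.3 CPM and Gh at 81.95 to 112.7 CPM beside the 131.8 to 169.7 CPM of Tg in the WT pituitaries and the 365, 125 and 99.6 CPM of Gh in the WT thyroids. Whether these traces come from the tissue or from its handling was not tested.

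Behind the hormones stood the factors that specify the pituitary lineages. Of 17 such factors 16 passed the filter, 15 were higher in the pituitary and 13 of them by at least 4-fold (median log2 difference -5.96). Pou1f1 was 123, 137 and 110.05 CPM in the pituitaries and 0.568, 0.19 and 0 CPM in the thyroids. Six6 was 134, 136 and 129 CPM against 0.505, 0.253 and 0.481 CPM, and Lhx3, needed for most hormone cells, was 100.3, 127 and 111 CPM against 0.695, 0.0633 and 0.18 CPM. For these factors no thyroid library held more than 11 reads. Tbx19, the corticotroph factor, Nr5a1, the gonadotroph factor, and Pax7, which marks the intermediate lobe, differed by -6.82, -6.08 and -5.91. Gata2, shared by thyrotrophs and gonadotrophs, was 75.3, 63.4 and 65.8 CPM against 16.7, 18.7 and 17.8 CPM, a difference of only -1.91. Isl1 went the other way, with 22.4, 14.5 and 15.3 CPM in the thyroids and 9.92, 11.95 and 10.9 CPM in the pituitaries (0.63, SE 0.18, limma adjusted p = 0.0171), a difference that did not pass without pituitary 1 (adjusted p = 0.0594).

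Receptors for the hypothalamic factors followed the lineages. On the list of receptors for releasing, inhibiting and feedback hormones 12 of 13 were called higher in the pituitary, all 12 by at least 4-fold, and none was higher in the thyroid. Ghrhr, the receptor for growth hormone-releasing hormone, was 119.7, 140.01 and 149 CPM in the pituitaries and Drd2, the dopamine receptor that restrains prolactin, 91.2, 98.4 and 85.2 CPM, with thyroid values of 1.26, 0.443 and 0.782 CPM and 0.568, 0.19 and 0 CPM. Trhr, through which thyrotropin-releasing hormone drives the thyrotroph, was far lower, at 13.6, 5.72 and 8.202 CPM against 0.316, 0.253 and 0.0601 CPM (-3.70, SE 0.31). The ghrelin receptor Ghsr and the vasopressin receptor Avpr1b had no read in any thyroid. Against a floor of 3 reads per library they were at least 22.6-fold and 26.8-fold higher in the pituitary. The glucocorticoid receptor gene Nr3c1, active in most cells, was the exception, at 148, 133 and 126 CPM and 120.3, 109 and 158 CPM, with ranges that overlap.

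Of the receptors for the pituitary's own hormones, most that could be tested were higher in the thyroid. Of 9 genes 5 passed the filter, of which 4 were at least 4-fold higher in the thyroid. The remaining 1 was called higher in the pituitary, by less than 4-fold. Tshr, the TSH receptor (chr12:91384563-91549808, plus strand), was 284, 203 and 271 CPM in the thyroids and 2.49, 1.37 and 1.48 CPM in the pituitaries (6.81, SE 0.22, limma adjusted p = 9.93e-07). Prlr, the prolactin receptor, was 919, 728 and 664 CPM against 112, 91.97 and 116 CPM, and Ghr, the growth hormone receptor, 46.5, 63.02 and 72.5 CPM against 14.02, 13.96 and 12.7 CPM. Per kilobase of exon Tshr and Prlr stood close in the thyroid, at 42.1 and 50.2 CPM per kb. The gonadotropin receptors Lhcgr and Fshr and the corticotropin receptor Mc2r were each at 2 reads or fewer in every thyroid, and so were not tested.

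**Figure D2:**
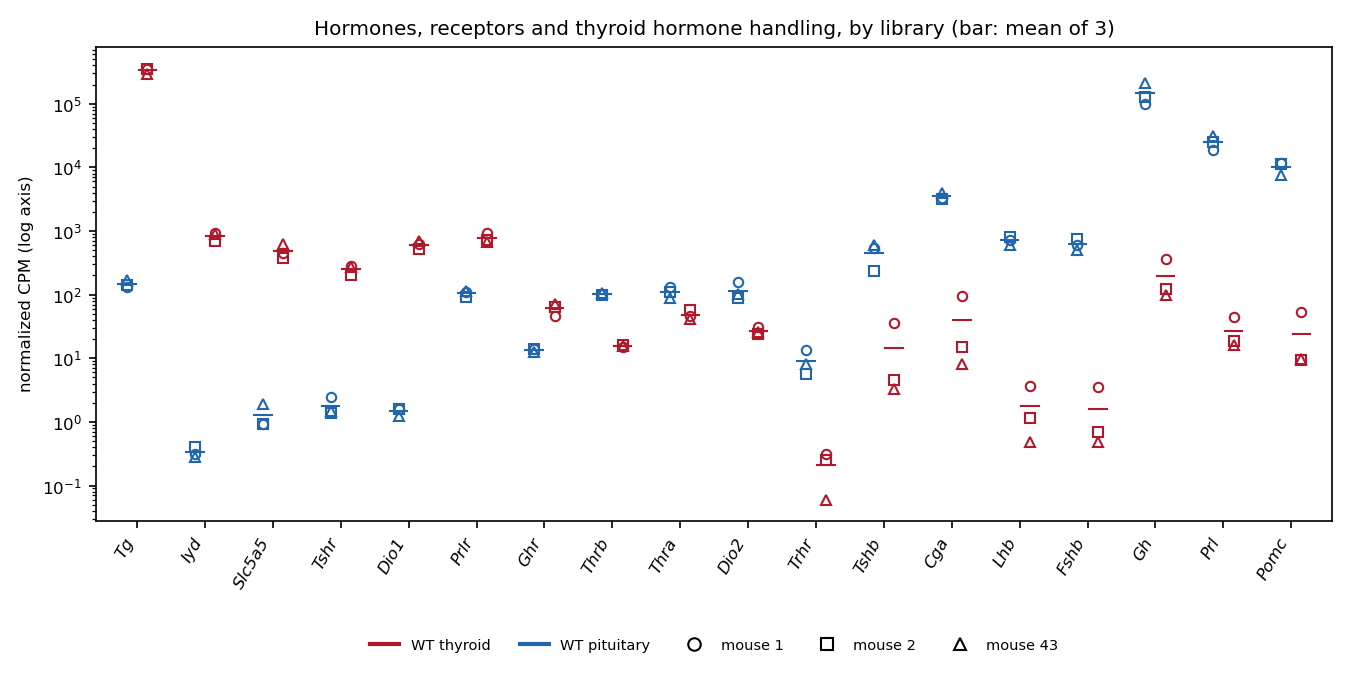
Normalized CPM (log axis) of 18 genes of the axis in each WT thyroid (red) and WT pituitary (blue), with a symbol for each mouse and a bar at the mean of 3. Genes from Tg to Ghr are higher in the thyroid and those from Thrb on are higher in the pituitary, and in the thyroid the pituitary hormones are highest in mouse 1.

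How each gland receives thyroid hormone also differed. Thrb (chr14:17660261-18038090, plus strand), the gene mutated in the K146Q mice, was 14.9, 16.3 and 15.6 CPM in the WT thyroids and 104, 97.7 and 106 CPM in the WT pituitaries, a log2 difference of -2.68 (SE 0.09, limma adjusted p = 1.19e-06). Thra was 45.4, 56.8 and 41.02 CPM against 134, 111 and 87.9 CPM (-1.20, SE 0.19). Both receptors were thus higher in the pituitary with no overlap, and per kilobase of exon Thra exceeded Thrb in both tissues: 10.3 against 2.105 CPM per kb in the thyroid and 24.01 against 13.9 in the pituitary. In the pituitary their mean CPM were close, at 110.8 for Thra and 102.5 for Thrb. The order per kilobase there rests mostly on exon lengths of 4614 and 7403 bases, which cover every annotated transcript. Among the RXR partners of both receptors Rxrg was 66.9, 68.3 and 66.1 CPM in the pituitaries and 3.54, 3.54 and 3.01 CPM in the thyroids (-4.13), while Rxra and Rxrb were higher in the thyroid by 0.81 and 0.59.

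The deiodinases Dio1 and Dio2 differed in opposite directions. Dio1, which removes iodine from either ring of thyroxine and is induced by thyroid hormone in many tissues, was 620.3, 516 and 691 CPM in the thyroids and 1.602, 1.601 and 1.25 CPM in the pituitaries (8.26, SE 0.14). Dio2, the activating enzyme on which pituitary feedback relies, was 156, 87.6 and 103 CPM in the pituitaries and 31.5, 23.7 and 25.9 CPM in the thyroids (-2.04, SE 0.23). The higher deiodinase was thus not the same in both glands: per kilobase of exon Dio1 stood at 309 and Dio2 at 4.65 CPM per kb in the thyroid, and Dio1 at 0.754 and Dio2 at 19.8 in the pituitary. The amino acid and thyroid hormone carrier Slc7a8 was higher in the pituitary (-2.30). Of the 18 genes reported from this list 16 were tested, 4 were higher in the thyroid, 8 higher in the pituitary and 4 not called. Among 5 genes known to respond to thyroid hormone, Dio1 included, 4 were higher in the thyroid, among them Me1 and Thrsp (3.27 and 2.84), which fat cells also express, and Hr was higher in the pituitary (-0.40), a call that did not hold without pituitary 1 or 2 or without thyroid 1 or 43 (limma adjusted p = 0.0733 to 0.116).

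Genes of regulated secretion were mostly higher in the pituitary, whose peptide hormones are stored in granules. On the list of granins and prohormone processing 10 of 11 genes were higher there, 7 by at least 4-fold. Chgb was 4915, 4180.4 and 5101 CPM in the pituitaries and 136, 46.00 and 32.9 CPM in the thyroids, and Pcsk1n, the inhibitor of prohormone convertase 1, 1344, 1468 and 1270.4 CPM against 24.00, 18.7 and 20.5 CPM. Chga, the granin of many endocrine cells, was the exception, at 6741, 12829 and 7454 CPM in the thyroids against 999.5, 1126 and 1006 CPM in the pituitaries (3.05, SE 0.24, limma adjusted p = 4.08e-05). By CPM it had rank 3 in the thyroid, and the thyroids kept the same order for it as for Pth, with mouse 2 highest. Of 21 genes of regulated exocytosis 18 were higher in the pituitary and 14 by at least 4-fold, such as Snap25 (-5.02), Syt1 (-5.93), Syt4 (-6.48) and Rab3b (-5.87). Rab3d and Rab27b went the other way (1.62 and 0.75), and Ptprn was 54.9, 35.1 and 377 CPM in the thyroids, higher in mouse 43 than in the others, with a log2 difference of -3.11 that became -4.14 without thyroid 43. Of 13 genes for pores of voltage-gated calcium and sodium channels 12 were higher in the pituitary, with Cacna1i (-5.77), Scn8a (-5.43) and Cacna1b (-5.11) first, and so was Scn3b, for an auxiliary subunit (-2.57).

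Thyroid cells fold, store and digest a very large protein. Of the chaperone and folding genes of the endoplasmic reticulum 18 of 21 were higher in the thyroid, 9 by at least 4-fold. Hspa5, the chaperone BiP, was 5055, 2429 and 4685 CPM in the thyroids and 894, 961 and 887 CPM in the pituitaries, and Hsp90b1 was 5198, 2352 and 5238 CPM against 743, 728 and 751 CPM. The largest differences were those of Creld2 (3.71), Ppib (3.51) and Pdia4 (3.27). Thyroid 2 was the lowest of the thyroids for 17 of these 21 genes, and the list summed to 30434, 16545 and 30596 CPM in thyroids 1, 2 and 43 against 6214 to 6600.1 CPM in the pituitaries, which do not vary in this way. Of 23 lysosomal genes 18 were higher in the thyroid, 7 by at least 4-fold (4 with CPM without the authors' factor), with the endocytic receptor Lrp2 (5.08) and the proteases Ctsh (4.15), Ctsc (3.40) and Ctsd (2.45) leading, whereas Gaa and Npc1 were higher in the pituitary (-1.24 and -1.31).

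Genes that handle peroxide were mostly higher in the thyroid. Of 20 tested selenoprotein and peroxide genes 14 were higher in the thyroid, 6 by at least 4-fold (3 with CPM without the authors' factor). Gpx2 was 243, 137 and 298 CPM in the thyroids and 0.667, 0.286 and 1.25 CPM in the pituitaries (7.52), and Sod3, an extracellular dismutase, was 958, 267 and 1135 CPM against 22.7, 25.3 and 27.6 CPM (4.69), again lowest in thyroid 2. Cat, catalase, differed by 3.22. Gpx3, the secreted glutathione peroxidase, was higher in the pituitary (-1.11), and Selm still more so (-2.20).

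Both glands are epithelia, but their adhesion genes were not alike. Cdh1, E-cadherin, was 605, 498 and 573 CPM in the thyroids and 15.3, 18.02 and 22.04 CPM in the pituitaries (4.89), and Krt19 185, 132 and 217 CPM against 1.33, 1.54 and 1.71 CPM (6.44). In all, 15 of 18 genes for keratins, claudins and junctions were higher in the thyroid, 10 by at least 4-fold. Claudins split by member: Cldn7, Cldn4 and Cldn3 were higher in the thyroid (3.42, 2.69 and 2.43) and Cldn9 in the pituitary, at 74.5, 84.8 and 78.9 CPM against 3.22, 4.68 and 3.67 CPM (-4.21).

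Downstream of Tshr, the cAMP pathway was present in both glands. Of 32 genes 7 were higher in the thyroid, 16 in the pituitary and 9 not called, and the 6 that differed at least 4-fold were all higher in the pituitary. Gnas, the stimulatory G protein α subunit, was 2403, 3017 and 2407 CPM in the thyroids and 6892, 7546 and 6547 CPM in the pituitaries (-1.43). Within each family some members were higher in one gland and some in the other: the cyclase Adcy5 was higher in the pituitary (-4.03) and Adcy4 and Adcy9 in the thyroid (1.93 and 1.24), the kinase subunit Prkar1b in the pituitary (-3.98) and Prkar2a in the thyroid (1.21), and the phosphodiesterases Pde10a and Pde8b in the pituitary (-3.90 and -3.23) and Pde7b in the thyroid (1.64).

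**Figure D3:**
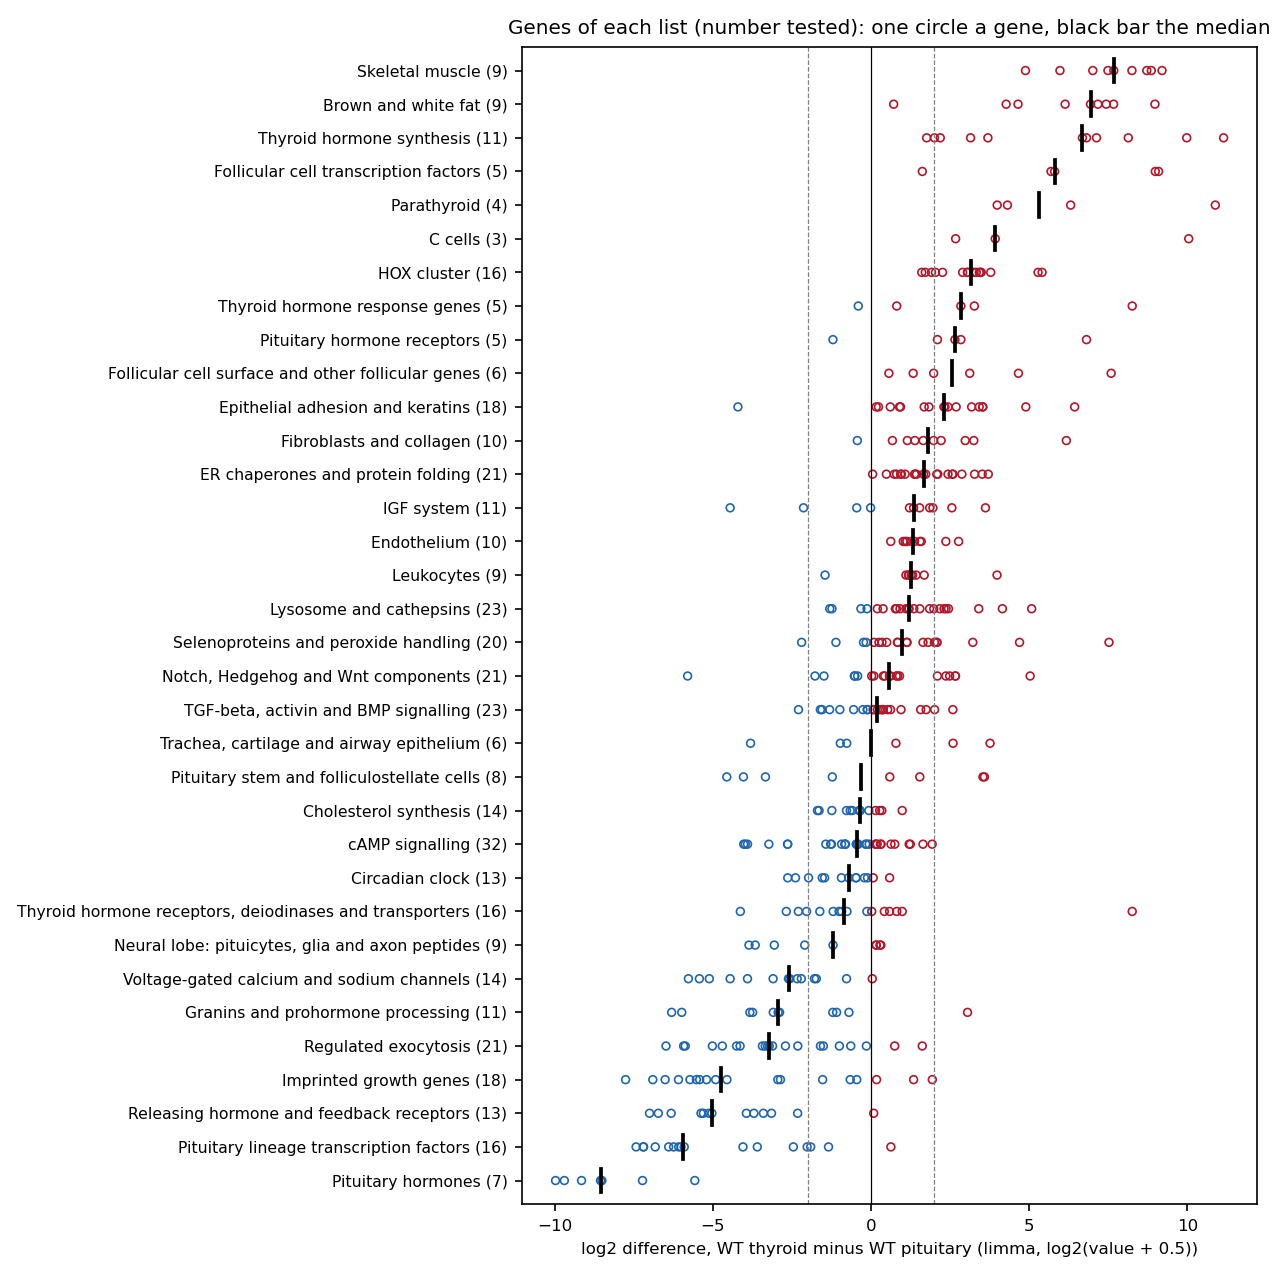
Log2 difference, WT thyroid minus WT pituitary, of every tested gene of the 34 gene lists, with the number tested in parentheses; a circle is a gene, the black bar the list's median, and dashed lines mark 4-fold. Medians run from -8.55 for the pituitary hormones to 7.67 for skeletal muscle.

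The dissected thyroid held more than follicles. Pth, parathyroid hormone, was 3240.1, 6012 and 3917 CPM in the thyroids of mice 1, 2 and 43 and 1.65, 1.72 and 1.88 CPM in the pituitaries (10.88, SE 0.22), second only to Tg in the size of its difference. The parathyroid factor Gcm2 (31.2, 70.4 and 30.5 CPM) and the calcium-sensing receptor Casr (183, 326 and 182 CPM) were also highest in mouse 2, and all 4 parathyroid markers were at least 4-fold higher in the thyroid. Calca, which encodes calcitonin, the product of the thyroid's C cells, was 2158, 2069 and 2591 CPM against 0.801, 2.29 and 2.22 CPM (10.04), with no such peak in mouse 2. Its companions Ret and Gfra4 were higher in the thyroid (3.93 and 2.67).

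Fat and muscle markers were higher in the thyroid and unequal among the thyroids. Most stood near or below 1 CPM in the pituitary, other than Fabp4 (3.96, 3.37 and 5.87 CPM) and Cidea (21.1, 23.96 and 32.4 CPM). All 9 fat genes were higher in the thyroid, 8 by at least 4-fold and Cidea by 0.71, a call that did not hold without pituitary 1 or pituitary 2 (limma adjusted p = 0.0627 and 0.0603). Cfd, adipsin, was 216, 306 and 549 CPM in the thyroids and Ucp1, the uncoupler of brown fat, 171, 120.2 and 29.2 CPM, so that mouse 43 was highest for the one and lowest for the other. All 9 skeletal muscle genes were at least 4-fold higher in the thyroid: Acta1 was 103, 1086 and 1950.00 CPM and Myh4 79.6, 1606 and 1966 CPM, with mouse 1 more than 10-fold below the others for both. Without thyroid 1 their log2 differences were 10.47 and 10.35, where all 3 thyroids gave 9.20 and 8.86. The muscle list summed to 399, 4964 and 7369 CPM in thyroids 1, 2 and 43. Of 8 genes of trachea, cartilage and airway epithelium 6 were tested, 3 higher in the thyroid and 3 in the pituitary. The airway antimicrobial gene Bpifa1 was highest in mouse 1, at 578, 55.3 and 114 CPM in the thyroids and 7.47, 4.46 and 36.97 CPM in the pituitaries, and its call (3.76, limma adjusted p = 0.0144) did not hold without pituitary 1 or pituitary 2 (adjusted p = 0.0529 and 0.0548). Scgb3a2 was also higher in the thyroid and highest in mouse 1 (2.59), whereas Scgb1a1, which did not pass the filter, was 0, 2.59 and 0.301 CPM in the thyroids, and Foxj1, a factor of ciliated cells, was higher in the pituitary (-0.77). Car3, a carbonic anhydrase of fat and muscle, was 333, 704 and 1062 CPM, which puts it among the 10 largest thyroid differences (9.38) together with Acta1 and Cfd. The part of these tissues in the other thyroid differences was not tested. Scd1, the stearoyl-CoA desaturase, had rank 5 by CPM in the thyroid, at 5893, 4637 and 2971 CPM against 43.2, 41.7 and 50.7 CPM (6.57), and had its order among mice opposed to that of the muscle genes.

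**Figure D4:**
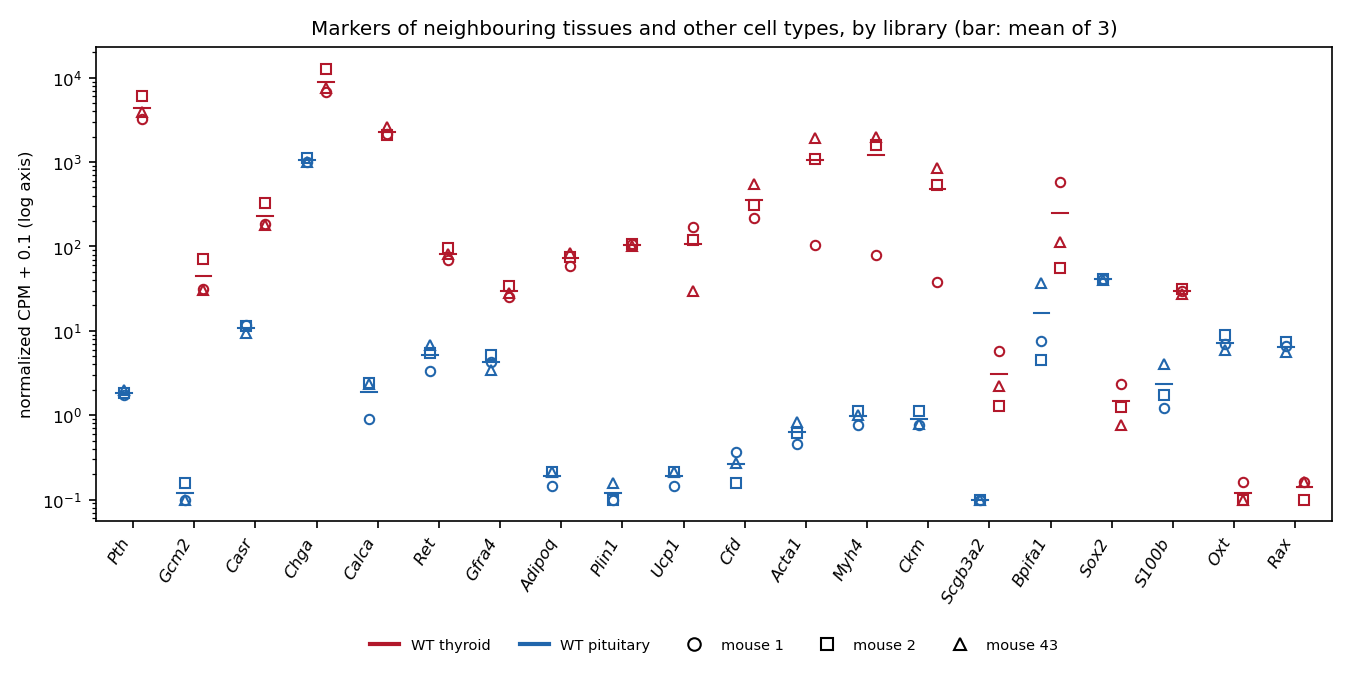
Markers of parathyroid, C cells, fat, muscle, airway and pituitary support cells in each WT thyroid (red) and WT pituitary (blue), as normalized CPM + 0.1 on a log axis; a symbol is a mouse and a bar the mean of 3. Muscle genes are lowest and Bpifa1 highest in the thyroid of mouse 1, and Pth, Gcm2, Casr and Chga are highest in that of mouse 2.

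Support cells of both organs were visible as well. All 10 endothelial genes were higher in the thyroid, by 0.62 for Plvap up to 2.77 for Flt1, a receptor of VEGF, and 8 of 9 tested leukocyte genes, led by Lyz2 (3.98), and 9 of 10 fibroblast genes, led by Dpt (6.17), were higher there too. In the pituitary the stem cell gene Sox2 was 40.6, 41.4 and 39.8 CPM against 2.27, 1.14 and 0.662 CPM (-4.56), while Sox9, which follicular cells also express, was 275, 211 and 253 CPM in the thyroids and 20.2, 21.6 and 20.1 CPM in the pituitaries (3.54). S100b, used as a marker of folliculostellate cells, was likewise higher in the thyroid, at 29.6, 31.6 and 27.1 CPM against 1.11, 1.66 and 3.93 CPM (3.58). Aldh1a2 and Cdh26, like Sox2, were higher in the pituitary (-3.34 and -4.03). The list of pituitary stem and folliculostellate cells was thus split. Of its 8 genes 4 were higher in the pituitary, 3 by at least 4-fold. The other 4 were higher in the thyroid, 2 by at least 4-fold. The neural lobe was present in the pituitaries at a low level: Rax, a factor of pituicytes, was 6.45, 7.21 and 5.47 CPM, Avp 2.49, 3.603 and 1.37 CPM and Oxt 6.85, 8.87 and 5.75 CPM, each with at most 4 reads in any thyroid. Of the 9 tested genes of the neural lobe and its glia 5 were higher in the pituitary and 4 were not called. The cartilage genes were split: Col2a1 was 8.19, 9.32 and 6.38 CPM in the pituitaries and 0, 0.127 and 0.18 CPM in the thyroids (-3.81), Acan was also higher in the pituitary (-0.97), Comp was higher in the thyroid (0.79) and Matn1 did not pass the filter.

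Imprinted growth genes were mostly higher in the pituitary, 15 of 18 in all and 12 by at least 4-fold, and a median log2 difference of -4.73. Among the 10 most abundant pituitary genes, Meg3 and Nnat came from this list. Meg3, a noncoding RNA, was 4731, 6401 and 4972 CPM against 58.04, 65.2 and 51.2 CPM in the thyroids. Nnat, neuronatin, was 4601, 5026 and 4219 CPM against 44.8, 36.8 and 33.4 CPM. Gnas, whose locus is imprinted too, was also among the 10 but is not on this list. Dlk1, which lies beside Meg3 on chromosome 12 and is expressed from the opposite parental copy, was 2938, 2717 and 3802 CPM against 48.2, 8.16 and 6.56 CPM (-7.76). In the thyroid it followed the hormones, with mouse 1 several-fold above the others, which Meg3 did not. The other genes of this locus, Rian, Mirg and Rtl1, differed by -6.09, -5.52 and -5.42. Peg3, Plagl1 and Zim1 were higher in the pituitary as well (-4.56, -5.20 and -5.72), and Igf2r alone was called higher in the thyroid (1.35). H19 was 1.52, 8.86 and 265 CPM in the thyroids and 2.45, 2.002 and 11.6 CPM in the pituitaries, highest in mouse 43 in both, and was not called (1.94, limma adjusted p = 0.338), though edgeR called it higher in the thyroid on the recovered reads (4.13, adjusted p = 0.0497).

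HOX genes, which record position along the body axis, were higher in the thyroid where they were detected. Of 39 genes 16 passed the filter, all 16 were called higher in the thyroid and 13 by at least 4-fold. Since a HOX gene could pass the filter only through the thyroid, where it is high, these counts support nothing beyond the values themselves. Hoxb3 was 24.6, 21.1 and 21.2 CPM in the thyroids and 0.089, 0.0572 and 0.114 CPM in the pituitaries. Hoxb2 was 23.7, 16.8 and 22.3 CPM and had no read in any pituitary, so it was at least 132-fold higher against a floor of 3 reads per library. Hoxa4 and Hoxa5, likewise without pituitary reads, were at least 31.4-fold and 22.9-fold higher. The genes that passed run from Hoxa2 to Hoxb9, and every paralogue numbered from 10 to 13 in the 4 clusters had at most 1 read in any of the 6 libraries.

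**Figure D5:**
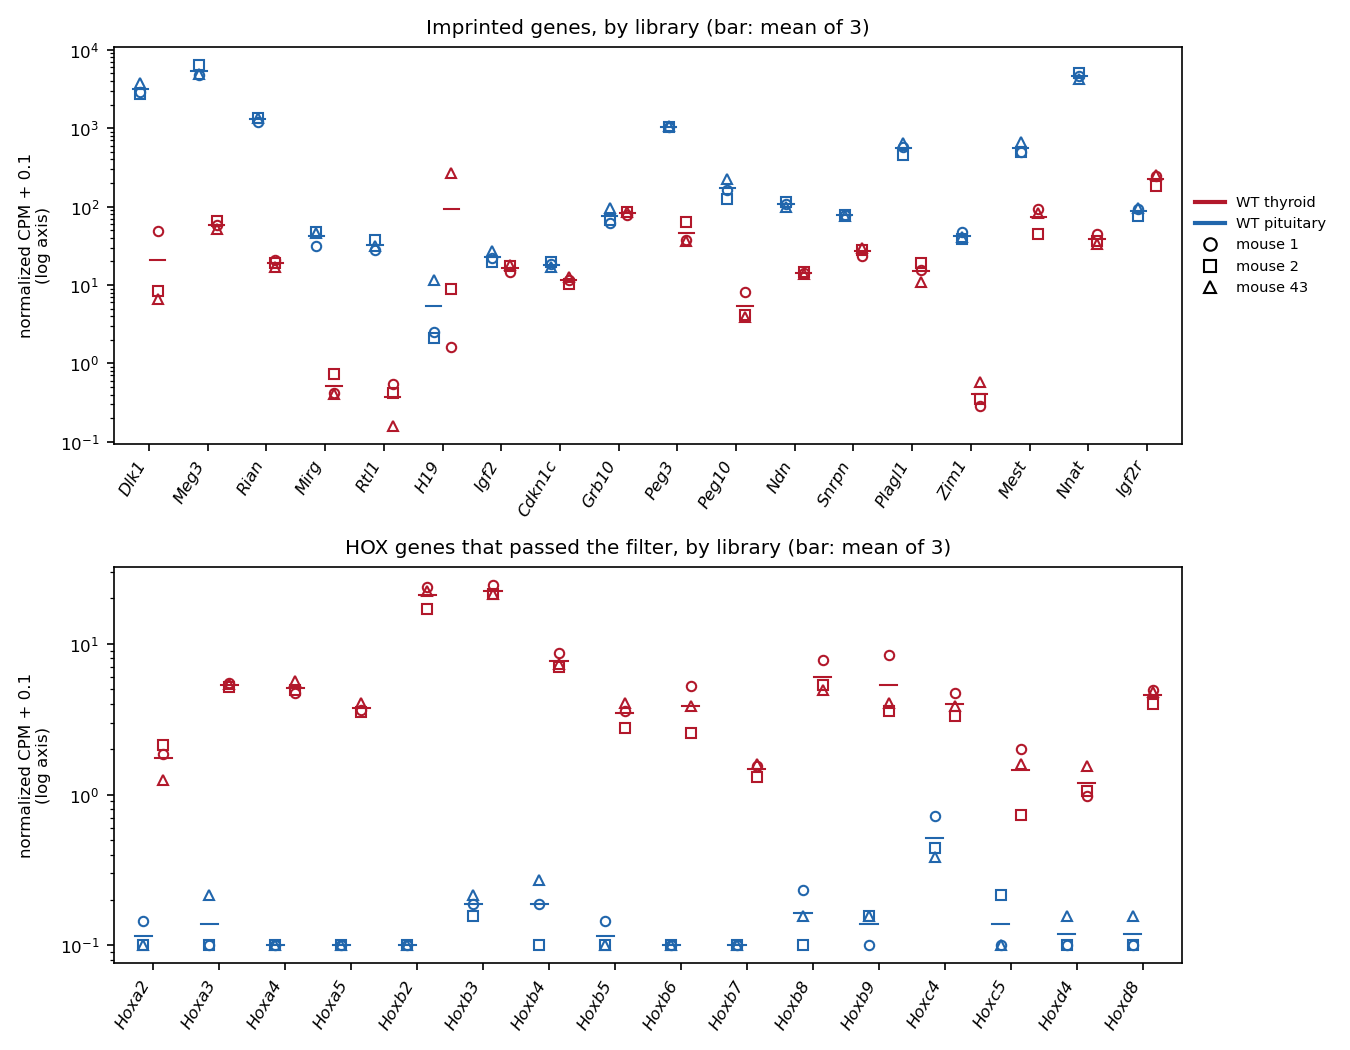
The 18 imprinted genes (upper panel) and the 16 HOX genes that passed the filter (lower panel) in each WT thyroid (red) and WT pituitary (blue), as normalized CPM + 0.1 on a log axis, with a symbol for each mouse and a bar at the mean of 3. Most imprinted genes lie higher in the pituitary, and the HOX genes lie higher in the thyroid with no overlap.

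Growth factor pathways held genes higher in either gland, as did all tested genes, of which 35.8% were higher in the thyroid and 36.5% in the pituitary. In the IGF system 7 of 11 tested genes were higher in the thyroid, among them Igf1 (2.55) and Igfbp3 (1.54), and 3 in the pituitary, led by Igfbp2 (-4.45) and Igfbp5, which was 1706, 1706 and 1623 CPM against 345, 349 and 461 CPM. Of Notch, Hedgehog and Wnt components 13 of 21 were higher in the thyroid and 4 in the pituitary, with Wnt4 (5.03), Jag1 (2.67) and Hes1 (2.66) on one side and Wnt10a (-5.80) and Gli1 (-1.77) on the other. For TGF-β, activin and BMP genes 8 of 23 were higher in the thyroid, 6 in the pituitary and 9 not called, and the list's median difference of 0.20 turned to -0.05 and -0.18 when totals left out the highest genes and with CPM without the authors' factor. The inhibin and activin subunits Inha, Inhba and Inhbb, which govern Fshb, were all higher in the pituitary (-2.29, -1.60 and -1.31). The activin antagonist Fst was higher in the thyroid, at 4.17, 5.25 and 3.79 CPM against 0.311, 0.229 and 0.399 CPM (2.59).

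Of 13 clock genes 8 were higher in the pituitary, led by Per3 (-2.63) and Hlf (-2.39), 1 was higher in the thyroid (Clock, 0.59) and 4 were not called. Nr1d1, the repressor REV-ERBα, was 219, 248 and 83.1 CPM in the thyroids of mice 1, 2 and 43 and 205, 211 and 90.3 CPM in their pituitaries, so that mouse 43 was lowest by more than 2-fold in both glands. Per2 was lowest in mouse 1 and highest in mouse 43 in both, at 23.5, 32.3 and 33.1 CPM and 21.6, 46.8 and 66.8 CPM. Not all clock genes shared an order of mice: over the 13 genes all 3 mice lay on the same side of the tissue mean in both glands for 4, 2 mice for 3, 1 mouse for 4 and none for 2. Neither Nr1d1 nor Per2 was called between tissues (0.07 and -0.47), but without pituitary 1 Per2 was higher in the pituitary (-0.92, limma adjusted p = 0.0152). Of 14 cholesterol synthesis genes 7 were higher in the pituitary and 1 in the thyroid, namely Mvd, of the mevalonate pathway (0.98, SE 0.17).

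Of the remaining genes with the largest pituitary differences, Ly6h, a cell surface protein of neurons, was 283, 333 and 255 CPM in the pituitaries and 2.400, 0.443 and 0.421 CPM in the thyroids (-7.73). Myo15, an unconventional myosin of hair cells, was 371, 374 and 238 CPM against 1.45, 0.949 and 1.08 CPM (-7.61), and Asic4, a member of the acid-sensing channel family, 123, 107 and 88.3 CPM against 0.379, 0 and 0.12 CPM (-7.35). All 3 lacked overlap between the tissues because the rule that picked them required it. Among the 10 most abundant thyroid genes was also the calcium-binding chaperone Calr, at 4389.99, 2633 and 4988 CPM against 621, 685 and 653 CPM (2.57). Rn45s, the ribosomal RNA precursor that remains after library preparation, was 6416, 11709 and 14609.6 CPM against 11485, 34109 and 21899 CPM, and was not called (limma adjusted p = 0.0888). It was called higher in the pituitary with the mouse number as a block (limma adjusted p = 0.0114), without pituitary 1 (0.0243), with totals that left out the 10 highest genes of each tissue (0.0445) and with CPM without the authors' factor (0.0218). It took 0.506% to 1.18% of thyroid and 1.27% to 3.63% of pituitary reads.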

How the data were processed

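RNA-Seq of WT thyroid and WT pituitary (3 mice each, numbers 1, 2 and 43) was analysed. Per the submitters' notes, reads were processed with bcl2fastq 2.17, Bowtie2 2.1.0 and RSEM 1.2.15 on mm10; the annotation is not given in the sources used here. The authors deposited 1 table per tissue, in which each of 24054 genes has a signal value for every library, namely CPM divided by a normalization factor, beside their own fold changes, average levels, test statistics and p-values for K146Q against WT, which were not used. The 18 factors have a geometric mean of 1.00, so the tables were scaled together and are compared across tissues here; the factors were 0.788 to 0.812 in the thyroids and 0.971 to 1.11 in the pituitaries.

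Whole reads were recovered for 100% of the values, within 0.01 read. Library totals were 19451890 to 20534278 reads in WT thyroid and 16468854 to 20339233 in WT pituitary, and 3 reads are worth 0.133 to 0.190 CPM. In the pituitary file, 27 symbols had been turned into dates and were lost from the comparison. Libraries of the same tissue were further apart than counting error allows (chi-square per degree of freedom 33.9 to 64.1), and p-values measure the spread between these mice.

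The test was limma (3.58.1, R 4.3.3) on log2(CPM + 0.5) of genes that reached 0.5 CPM in 3 or more libraries of the 6, without a mean-variance trend and without a block, with Benjamini-Hochberg adjustment over 15859 genes and a threshold of 0.05. The deposited values are normalized, so edgeR (4.0.16) and DESeq2 (1.42.0) were run only as alternatives, on the recovered reads. In simulated libraries with the spread of these 6 and their read totals scaled by the authors' factors, only 200 of 15859 genes were changed. The changed genes were drawn from those with a mean of at least 2 CPM. In these libraries 63% of genes changed 2-fold and 94% of those changed 4-fold were recovered, and 7.65% of calls were false. In the real comparison 72.3% of genes were called, so these rates need not hold for it.

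Thyroid and pituitary with the same number are taken to come from the same mouse, as the numbering recurs in each tissue. Deviations from the group means correlated across genes at 0.03, 0.09 and 0.10 for mice 1, 2 and 43, and at -0.144 to 0.0644 for unlike numbers. These values cover all genes at once and do not settle what pairing adds for a single gene. The fit with the mouse number as block is given as an alternative. Exon lengths and coordinates come from GENCODE M21 (GRCm38) and promoter windows from RefSeq (GRCm38.p6), matched by symbol. The genes named are the members of 34 lists, the 10 genes in each direction with the largest difference among calls with a mean of at least 10 CPM in the higher tissue and no overlap, and the 10 of highest mean in each tissue. Members and lists were chosen with earlier results of these data known, so list counts are descriptions. A few genes are not reported here and were left out of the lists. Differences named without an adjusted p passed the threshold unless stated.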

Additional observations from a re-analysis of the deposited data

Results flagged for a closer look

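Tg was read in tissue that the comparison does not use. The 6 hypothalamus libraries, 3 WT and 3 K146Q, held Tg at 133.5 to 167.3 CPM with a median of 144.1 CPM, which is 0.0432% of the WT thyroid mean and lies far above the worth of 3 reads. The WT pituitaries stood at 131.8 to 169.7 CPM. Pth was 1.16 to 2.15 CPM in the hypothalamus libraries. The source of these reads was not tested.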

How the results depend on the processing

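Results were recomputed under 18 alternatives. The 4 counts of calls stayed within 1.5 times of the reported ones except with at least 1 CPM asked of all 6 libraries, which leaves 12838 genes and 803 and 738 genes at least 4-fold higher in thyroid and pituitary; this filter removes genes that are low in 1 tissue, and with them many list members. Leaving out 1 library gave 5263 to 5532 and 5353 to 5653 calls, or 1222 to 1305 and 1443 to 1500 with 4-fold. With the mouse number as replicate block the calls were 5552 and 5677, and of 169 named genes that were compared it changed the call of Rn45s alone. These 169 do not hold every list member, and with the block the clock gene Nr1d2 had a limma adjusted p = 0.0509. edgeR called 5759 and 5788 genes and DESeq2 5683 and 5687. Of the 169 genes compared 152 kept direction and side of the threshold throughout. Reversed, all among genes not called, were Nr1d1 (-0.196 with quantile normalization, -0.18 without the 10 highest genes, -0.31 with CPM without the authors' factor, and -0.331 to 0.56 without 1 library), Nr3c1 (-0.17, -0.17 and -0.29, and -0.028 to 0.24), H19 (-0.042 to 3.48 without 1 library) and Rn45s (0.24 with quantile normalization); the cause was not tested. Of 1224 list counts 53 moved by over 1.5 times. Depth limits genes below 0.133 to 0.190 CPM, and 3 mice a tissue limit precision.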

Other observations

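The glycoprotein hormone subunits had another ratio to Gh in thyroid 1 and in the other libraries of the series than in the WT pituitaries. In thyroid 1 Cga was 26.3% and Tshb 9.83% of Gh, where the WT pituitaries had 1.88% to 3.42% and 0.187% to 0.551%. In thyroids 2 and 43 Cga was 11.9% and 8.09% of Gh, in the 3 K146Q thyroids 10.9% to 14.9%, in the 6 hypothalamus libraries 9.04% to 18.8% and in the 3 K146Q pituitaries 21.5% to 33.2%. Tshb was 3.65% and 3.32% of Gh in thyroids 2 and 43, 2.61% to 5.27% in the K146Q thyroids, 3.11% to 7.3% in the hypothalamus and 7.43% to 13.1% in the K146Q pituitaries, so the ratios of every library outside the WT pituitary were above those of the WT pituitaries. The origin of these reads was not tested.

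Between mice, 135 of 10195 genes with a mean of at least 10 CPM varied by more than 4-fold in the WT thyroid, and 17 of 10447 did so in the WT pituitary. With at least 1 CPM in each of the 3 libraries of one tissue and no read in the other, 30 genes were found in the thyroid and 39 in the pituitary.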
